A study of Bos taurus with 4 samples.

Results

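Calcium-handling genes of the muscle fibre were compared between bulls of Limousin (LIM), a beef breed, and of Holstein-Friesian (HF), a dairy breed. The semitendinosus, a muscle of the hind leg, was taken from 4 bulls of each breed at the age of 15 months. RNA of 1 LIM bull (red Cy5 label) and 1 HF bull (green Cy3 label) was hybridised together to each of 4 two-colour microarrays. The dyes were not swapped on any array, so that breed and dye cannot be told apart. The labels give breed, age and tissue for both channels and no treatment. The study took pieces from the centre of the muscle, cleared of connective and fat tissue, and not single fibres. In such pieces fewer fibres of a type and less RNA per fibre cannot be told apart.

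The gene group consisted of 7 genes: the calcium pumps ATP2A1 and ATP2A2, the calcium-binding proteins PVALB, CASQ1 and CASQ2, the pump regulator SLN and the small GTPase RRAD. They were picked with the LIM over HF ratios of these same arrays known, so that their ratios and levels describe the bulls and give no test of the group. Probes were assigned by matching the transcript accession of each probe to a gene symbol. This gave 5 probes of 4 genes, 1 each for ATP2A1, PVALB and RRAD and 2 for ATP2A2, out of 21475 probes for bovine transcripts. CASQ1, CASQ2 and SLN were matched by no probe and were not analysed here, so that the calsequestrins, calcium-binding proteins of the sarcoplasmic reticulum, are without a value.

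A muscle fibre contracts when calcium leaves the sarcoplasmic reticulum through the ryanodine receptor, and it relaxes when the SERCA pumps return calcium to this store. Fast fibres use SERCA1, encoded by ATP2A1, and hold the soluble calcium buffer parvalbumin, encoded by PVALB, while slow fibres and the heart use SERCA2, encoded by ATP2A2. RRAD belongs to the RGK family of GTPases, which bind the beta subunit of voltage-gated calcium channels and reduce calcium entry. The genes are described below in this order: the pumps, the buffer and the channel regulator.

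On each of the 4 arrays all 5 probes gave a signal well above background for both dyes, and no spot was saturated. Ratios are log2 values of the LIM over the HF channel after background correction and loess, which removes the trend of the ratio with brightness, and errors are moderated standard errors over 4 arrays. Duplicate spots of a probe on 1 array differed by an SD of at most 0.12. Of 10 skeletal muscle markers 8 were measured and all 8 were well above background in both channels on every array. The direction follows the dye labels, and for RRAD and CAMK2D it is the opposite of the direction given by the study. By quantitative PCR of other genes, the study reported the same direction between breeds as on its microarrays. It also reported less myostatin protein in the beef breeds by Western blot. RRAD and CAMK2D were not among the genes checked in these ways. If the dyes had been exchanged against their labels, the sign of every ratio, each rank and the direction of the fast and slow differences below would turn.

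ATP2A1 lay on the LIM side and ATP2A2 on the HF side on each array. The log2 ratio of ATP2A1 was 0.96, 0.34, 1.43 and 0.56 on arrays 1 to 4. Its mean was 0.82 ± 0.19 (SD 0.48, n = 4 arrays), 1.77-fold more in LIM. Array 3 gave the highest and array 2 the lowest ratio of the pump of fast fibres.

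The brighter of the 2 probes of ATP2A2 had log2 ratios of -1.89, -0.49, -1.01 and -0.69, with a mean of -1.02 ± 0.24 (SD 0.62, n = 4 arrays), 2.03-fold less in LIM. The second, dimmer probe had log2 ratios of -1.66, -0.73, -1.40 and -0.85, with a mean of -1.16 ± 0.18 (SD 0.44, n = 4 arrays), 2.24-fold less in LIM. Both probes of the slow pump placed the arrays in the same order, with the lowest ratio on array 1 and the highest on array 2, and they carry the same transcript accession, so that they are no independent measurements of the bulls.

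PVALB had log2 ratios of 2.08, 1.68, 2.95 and 0.87 on arrays 1 to 4. The mean was 1.90 ± 0.33 (SD 0.87, n = 4 arrays), 3.72-fold more in LIM. Its SD between arrays was the largest of the 5 probes, and array 3 gave the highest ratio, as it did for ATP2A1. By mean ratio as labelled, PVALB was the 4th highest of 6376 named genes with a probe above background (4th lowest with the sign turned), and ATP2A1 was the 65th highest (65th lowest).

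RRAD had log2 ratios of -2.92, -2.11, -1.39 and -1.75 on arrays 1 to 4. The mean was -2.04 ± 0.25 (SD 0.66, n = 4 arrays), 4.12-fold less in LIM. Array 1 gave the lowest ratio, as for both probes of ATP2A2, but the highest was on array 3. As labelled, RRAD was the 14th lowest and ATP2A2 the 91st lowest of the 6376 genes (14th and 91st highest with the sign turned).

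**Figure D1:**
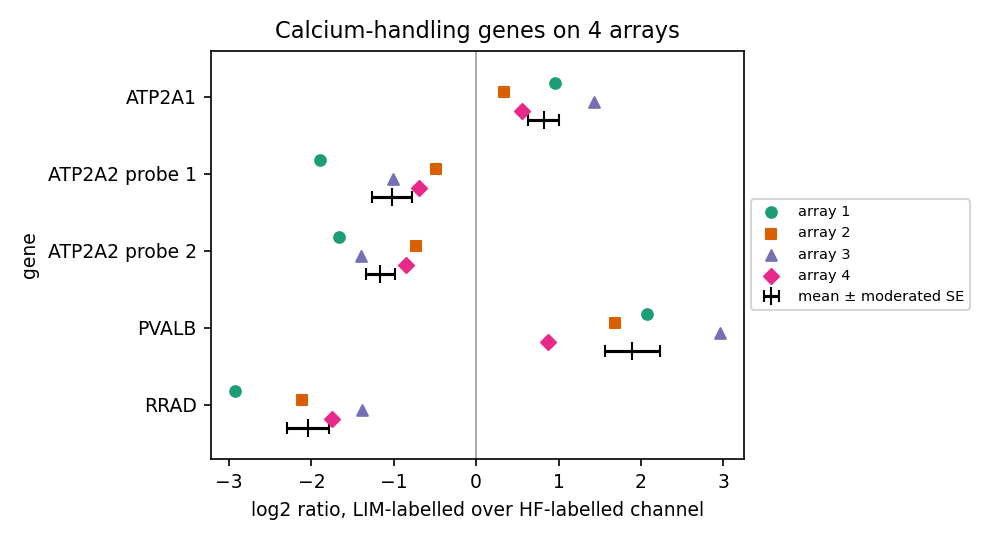
Log2 ratio of the LIM-labelled over the HF-labelled channel (horizontal axis) of each probe (rows), with 1 symbol per array and the mean with its moderated standard error in black. ATP2A1 and PVALB lie above 0 on all 4 arrays, between 0.34 and 2.95, and ATP2A2 and RRAD lie below 0 on all 4 arrays, between -2.92 and -0.49.

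In limma's fit across all probes, PVALB and RRAD and the dimmer probe of ATP2A2 had an adjusted p under 0.05, and ATP2A1 and the brighter probe of ATP2A2 did not. Taking 1 probe per gene, 1 member was called higher, where 2.78% of all genes were, and 1 was called lower, where 3.15% were. By probe, 3 of 5 were called, where 5.47% of 15856 probes were. Nothing is read from these counts, since the members were selected on the ratios of this contrast. Without array 1, 2 or 4 no probe of the whole array passed, and 51 passed without array 3.

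The level of each probe in each channel, on a log2 scale of brightness made comparable between arrays, shows in which breed the bulls varied. For ATP2A1 the LIM bulls had log2 levels of 17.66, 17.41, 17.48 and 17.45, and the HF bulls of 16.70, 17.07, 16.05 and 16.89. The lowest LIM bull was 0.34 above the highest HF bull, and the HF bulls varied more, with an SD of 0.44 against 0.11. This probe was the 10th brightest of 15856.

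For the brighter ATP2A2 probe the LIM bulls had log2 levels of 9.85, 9.94, 10.18 and 10.18, and the HF bulls of 11.74, 10.42, 11.19 and 10.87. All 4 HF bulls were above all 4 LIM bulls, by a gap of 0.24 between the nearest. This separation rests on loess. With each array centred on its median instead, the LIM bull of array 2 was above its HF bull (log2 ratio 0.20). The dimmer ATP2A2 probe gave LIM log2 levels of 7.64, 7.75, 7.74 and 7.85 and HF log2 levels of 9.30, 8.48, 9.13 and 8.71, with a gap of 0.63. With both probes the HF bull of array 1 was highest and that of array 2 lowest, while the LIM bulls had an SD of 0.17 and 0.088.

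PVALB had log2 levels of 11.23, 11.55, 12.34 and 11.12 in the LIM bulls and of 9.15, 9.87, 9.39 and 10.25 in the HF bulls. The breeds were separated by a gap of 0.87. PVALB was the exception among the members in its spread, since the LIM bulls (SD 0.55) and the HF bulls (SD 0.49) varied by similar amounts. Array 3 held the LIM bull with the highest level, and array 4 joined the lowest LIM bull with the highest HF bull, which gave the smallest of the 4 ratios.

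RRAD had log2 levels of 12.39, 12.24, 12.33 and 12.10 in the LIM bulls and of 15.31, 14.36, 13.72 and 13.85 in the HF bulls. The gap of 1.34 between the breeds was the widest of the 5 probes. The 4 LIM bulls lay within 0.29 of each other (SD 0.13) and the 4 HF bulls within 1.59 (SD 0.72), so that the differences between arrays in the RRAD ratio came mostly from the HF channel. In the brightness before any scaling between arrays, the highest LIM spot mean was 1.32 times the lowest and the highest HF spot mean 5.17 times the lowest. This brightness is not corrected for the difference between the channels. Loess took 1.02, 1.51, 2.12 and 1.43 from the RRAD ratio on arrays 1 to 4. The HF spot mean was highest on the array with the smallest correction and lowest on that with the largest.

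**Figure D2:**
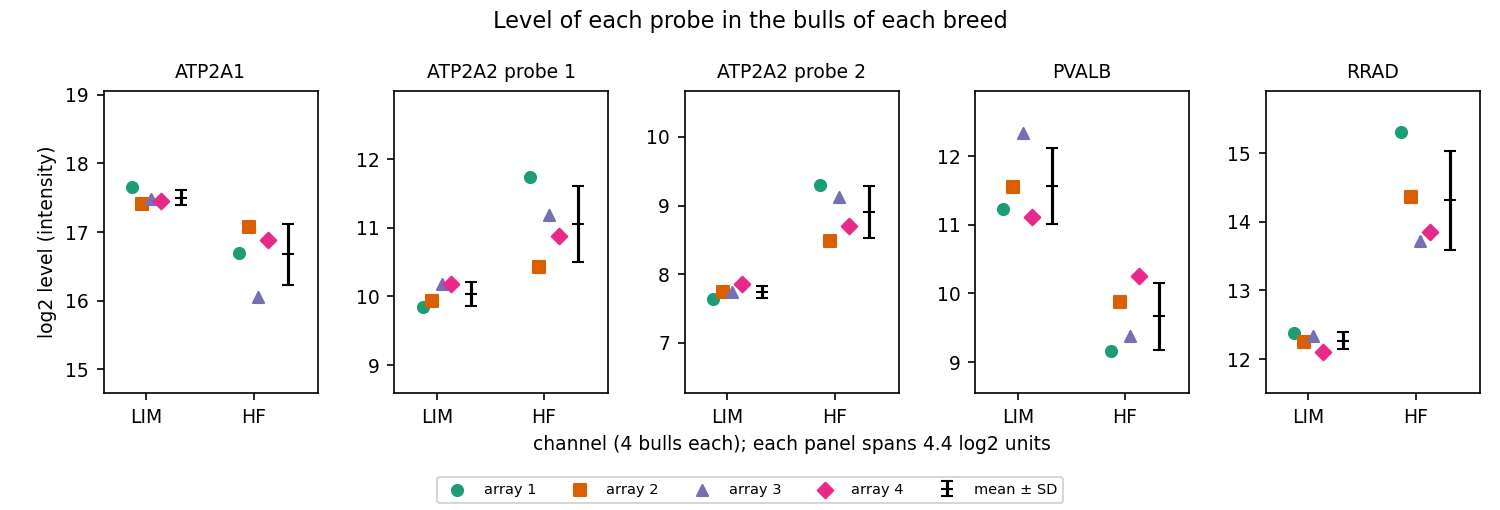
Log2 level (vertical axis, each panel spanning the same number of log2 units) of the 5 probes in the LIM and HF channels, with 1 symbol per array and the mean ± SD in black. The breeds do not overlap in any panel, and the HF bulls are more widely spread than the LIM bulls for ATP2A1, ATP2A2 and RRAD but not for PVALB.

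The levels of the breeds after loess did not overlap for any of the 5 probes, where 16.8% of all probes had no overlap. This was fixed in part by the choice of the members and is given as a description. The SD of the HF bulls over that of the LIM bulls was 4.08 for ATP2A1, 3.24 and 4.29 for the probes of ATP2A2, 0.89 for PVALB and 5.76 for RRAD. Over all probes the HF bulls had the larger SD for 67% of probes, with a median SD of 0.17 in HF and 0.13 in LIM, and the ratio of the SDs reached 3.24 at the 90th and 4.31 at the 95th percentile. Since each breed had 1 dye, a wider spread among HF bulls and a wider spread of the green channel cannot be told apart.

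The ratio of the fast over the slow pump within an array is a comparison of both genes in the same bulls, in which a brightness difference common to all probes of a channel cancels. A dye effect particular to 1 probe does not cancel and cannot be told apart from breed. ATP2A1 less ATP2A2 was 2.85, 0.82, 2.43 and 1.25 on arrays 1 to 4. The mean difference of log2 ratios was 1.84 (SD 0.96, n = 4 arrays). The balance of the pumps thus differed 3.58-fold between the channels, towards the fast pump in the channel labelled LIM. The difference was above 0 on all 4 arrays, with the widest gap between the pumps on array 1 and the narrowest on array 2.

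Of 11 pairs of fast and slow isoforms, 4 had a probe for both genes, and the pair of calsequestrins was among those not analysed here. TNNC2 less TNNC1, the troponin C of fast and slow fibres, which binds the calcium that starts contraction, was 2.73, 1.58, 2.28 and 0.60 on arrays 1 to 4, with a mean of 1.80 (SD 0.93). MYL1 less MYL3, essential light chains of myosin, was 1.42, 1.10, 1.05 and 0.50, with a mean of 1.02 (SD 0.38). MYH1 less MYH7, myosin heavy chains of fast and slow fibres, was 2.25, 0.12, 0.98 and 0.70, with a mean of 1.01 (SD 0.90).

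All 4 pairs were above 0 on all 4 arrays, and array 1 gave the largest difference in each. The lowest difference was on array 2 for the pumps and for the myosin heavy chains and on array 4 for the other pairs. These values are descriptions from the same bulls as the pump ratios and are not independent of them.

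**Figure D3:**
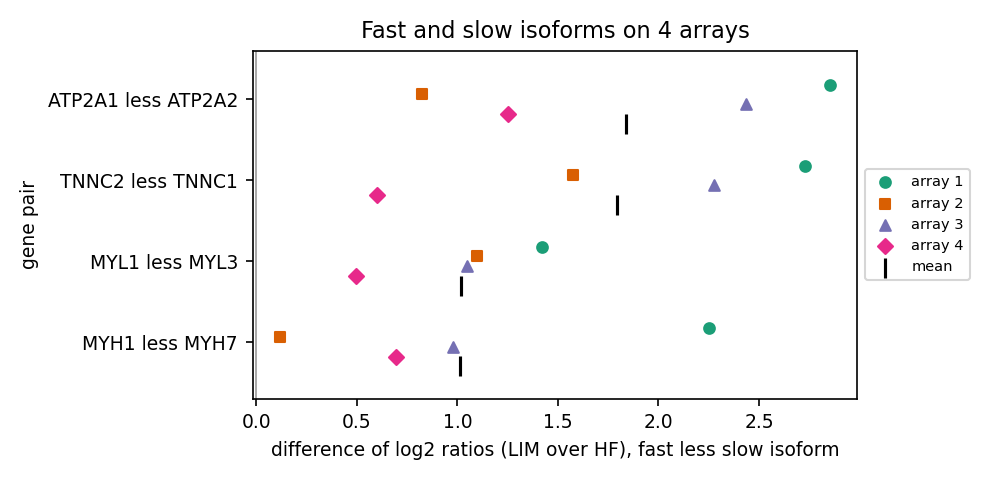
Difference of the log2 ratios (LIM over HF) of the fast and the slow isoform (horizontal axis) for the 4 pairs with a probe for both genes (rows), with 1 symbol per array and a black bar for the mean. All values are above 0, the pump pair spans 0.82 to 2.85, and array 1 is the farthest to the right in every pair.

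Within these pairs the slow genes had mean log2 ratios of -1.12 ± 0.30 (TNNC1), -0.74 ± 0.12 (MYL3) and -1.06 ± 0.32 (MYH7), and the fast genes of 0.68 ± 0.12 (TNNC2), 0.27 ± 0.10 (MYL1) and -0.044 ± 0.11 (MYH1). TNNC2 (adjusted p = 0.0453) rose and MYL3 (adjusted p = 0.0422) fell in limma's test, and the other 4 did not pass. Over all genes 2.78% rose and 3.15% fell, and the pairs were listed with earlier results of these data known. The calls of TNNC2 and MYL3 were lost when any single array was left out, with adjusted p by limma of 0.0642 to 0.141 for TNNC2 and 0.0913 to 0.116 for MYL3. With median centring MYL3 was at -0.089 and not called, and MYH1 was at 0.70. TNNT1 (-0.87 ± 0.44), MYL2 (-0.88 ± 0.40) and MYBPC1 (-0.39 ± 0.07) on the slow side, and TPM1 (0.55 ± 0.24) and ACTN3 (0.48 ± 0.12) on the fast side, had no measured partner and did not pass. On array 1 TNNT1 was at -2.54, MYL2 at -2.31 and TPM1 at 1.26, and on array 4 at 0.15, 0.020 and -0.017. MYBPC1 and ACTN3 had the same sign on 4 of 4 arrays. With median centring MYBPC1 was at 0.30, TNNT1 at -0.20, MYL2 at -0.14, TPM1 at 1.29 and ACTN3 at 1.20. MYH2, a further myosin heavy chain of fast fibres outside the pairs, had log2 ratios of -0.74, -0.057, -1.54 and 0.29 (mean -0.51 ± 0.31) and did not pass.

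For each member the genes with the most similar ratios on the 4 arrays were taken by the root mean square difference, among 5434 named genes detected in LIM and HF on every array. The nearest to ATP2A1 were PLXDC1 (0.11), LDHA, the lactate dehydrogenase subunit of glycolytic muscle (0.18), and SMIM11 (0.21). The nearest to ATP2A2 was MYH7, the myosin of slow fibres (0.22), with log2 ratios of -2.16, -0.37, -1.24 and -0.45, followed by TUBB6, a tubulin (0.24), and PDLIM1 (0.29). The slow pump and the slow myosin thus had the same order of arrays 1, 3, 4 and 2 from the lowest ratio up.

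PVALB stood further from its neighbours, which were NDRG2 (0.53), METTL21E, a muscle methyltransferase (0.54), and PDLIM7 (0.57). The nearest to RRAD were JUN (0.33), TRIB1 (0.36) and KLF4 (0.37), of which JUN and KLF4 encode transcription factors induced early after a stimulus and TRIB1 a pseudokinase. The mean log2 ratios of these 3 genes were -1.89, -1.92 and -2.31. With only 4 arrays such likeness describes these bulls and carries no test.

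The LIM channel was brighter than the HF channel as a whole, and the size of the correction differed with brightness. Before any centring ATP2A1 had a mean log2 ratio of 2.43, PVALB of 3.38, the probes of ATP2A2 of 0.45 and 0.11, and RRAD of -0.52. Loess took away 1.604 from ATP2A1, 1.48 from PVALB, 1.47 and 1.27 from ATP2A2 and 1.52 from RRAD, where the median over all probes was 1.21. The sign of ATP2A2 below 0 therefore rests on correcting for the brighter LIM channel: uncorrected, both of its probes were below 0 on array 1 only, and RRAD was above 0 on array 3 (0.73).

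The other centrings, which shift all probes of an array by the same amount, kept the sign of every member's mean. With the median of all probes the means were 1.56 for ATP2A1, -0.42 for the brighter ATP2A2 probe, 2.51 for PVALB and -1.39 for RRAD, and with the median of the probes above background they were 1.299, -0.68, 2.25 and -1.65. Under the first, the median of all kept probes was at 0.25, and the brighter ATP2A2 probe was at -1.88, 0.20, -0.0098 and -0.0054 on the 4 arrays, so that its mean came from array 1, while the dimmer probe was below 0 on all 4. The difference between the pumps was 1.98 under either centring and at least 1.14 on each array.

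ATP2A1 lay at the bright end of the array, where many abundant muscle transcripts are. The 100 brightest probes had a median log2 ratio of 1.73 before and 0.14 after loess, and 80% of them lay between -0.38 and 0.73 after it. ATP2A1, at 0.82, was above this range.

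**Figure D4:**
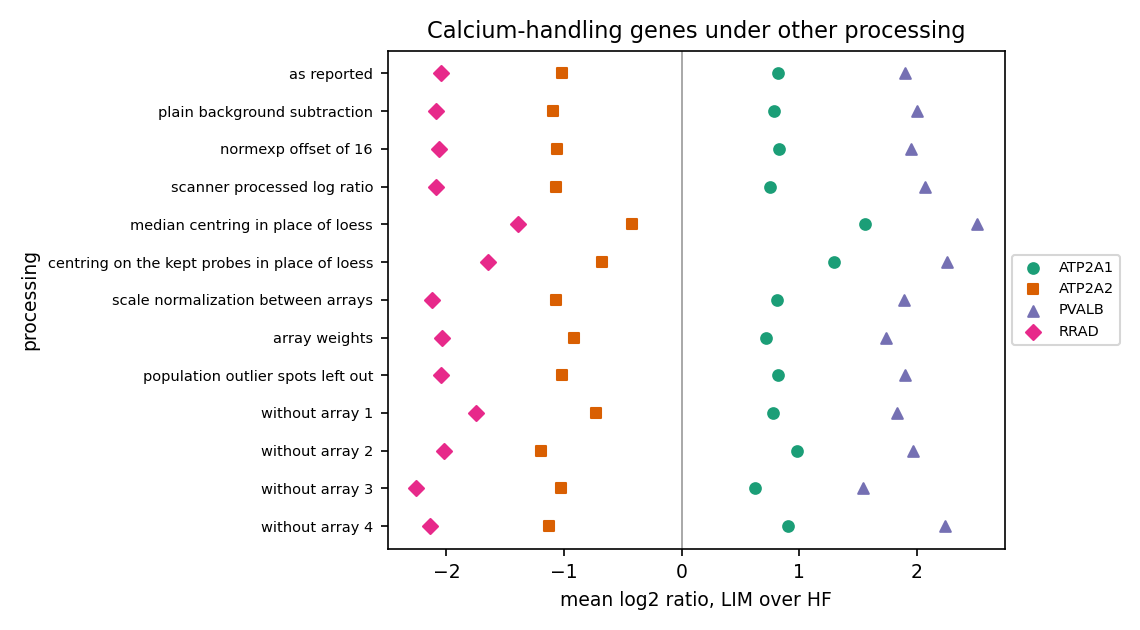
Mean log2 ratio of LIM over HF (horizontal axis) of ATP2A1, ATP2A2 (brighter probe), PVALB and RRAD as reported and under other processing (rows), including each array left out. No gene crosses 0, and the largest shifts are under median centring, where ATP2A1 is at 1.56 and ATP2A2 at -0.42.

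The other genes of calcium handling were described from a list of 66, of which 27 had a probe above background, 4 had only dim probes and 35 were matched by no probe. Of the 27, 2 rose, 0 fell and 25 did not pass limma's test with adjustment over all probes, where 2.78% of genes rose and 3.15% fell. At an unadjusted p under 0.05 there were 9 of 27, where 28.9% of all genes were. REM2 and ITPR2 were not well above background in the HF channel on any array. The other 25 genes had a median log2 ratio of 0.063, with 14 above and 11 below 0, against a median of 0.0029 over all genes. With median centring 9 of them changed sign, 21 were above 0 and their median was 0.52.

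MICU2, a gatekeeper of the mitochondrial calcium uniporter, had log2 ratios of 0.76, 0.37, 0.50 and 0.55, with a mean of 0.54 ± 0.08 (adjusted p = 0.0351 by limma). CAMK2D, the delta chain of a calmodulin-dependent kinase, had log2 ratios of 1.17, 0.78, 0.86 and 0.31, with a mean of 0.78 ± 0.15 (adjusted p = 0.0495 by limma). Both were higher on 4 of 4 arrays. Neither passed when any single array was left out: 0 of the 27 genes passed then, with 7 to 9 at an unadjusted p under 0.05.

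Among the relatives of RRAD, the 3 other RGK GTPases were measured and none passed. GEM had a mean log2 ratio of -0.35 ± 0.096 (adjusted p = 0.0954 by limma) and lay below 0 on 4 of 4 arrays, and REM1 was at -0.018. No value is given for REM2, which was too dim in HF. RRAD itself was at -2.04. At the channel that these proteins bind, CACNB1, a beta subunit of the voltage sensor, was at -0.0086 and STAC3, which couples the sensor to release, at -0.31 ± 0.17, and with median centring they were at 0.61 and 0.38.

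On the side of release and storage, ASPH, whose gene also gives junctional proteins (0.26 ± 0.10), JPH1, a junction protein (0.13), HRC, a calcium-binding protein of the store (0.063), and CALR, calreticulin (-0.13 ± 0.076, and 0.52 with median centring), did not pass. No relative or regulator of the SERCA pumps had a kept probe: ATP2A3 was too dim, and PLN and MRLN were not analysed here. The plasma membrane pump ATP2B2 had a mean log2 ratio of 0.96 ± 0.25 (adjusted p = 0.0852 by limma), and its second probe 0.60 ± 0.14. Its values of 0.81, 0.99, 1.79 and 0.25 were highest on array 3 and lowest on array 4, as those of PVALB were.

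Calcineurin and CaM kinase signalling, which reads the calcium signal in slow fibres, had 9 measured genes, of which 1 (CAMK2D) rose and 8 did not pass. RCAN1, an inhibitor of calcineurin, had the largest ratio of all 27, at -1.62 ± 0.31 (adjusted p = 0.0509 by limma), with -2.47, -1.24, -0.69 and -2.08 on arrays 1 to 4. Its second probe was at -0.94 ± 0.31. The calcineurin subunits PPP3CB (0.55 ± 0.12) and PPP3R1 (0.48 ± 0.14) and the transcription factor NFATC1 (0.27 ± 0.08) were above 0 on 4 of 4 arrays and did not pass. The calcineurin subunit PPP3CA, at 0.53, -0.14, 0.52 and -0.15, was above 0 on 2 arrays. NFATC3 (0.38 ± 0.16) was above 0 on 4 of 4 arrays. RCAN3 (-0.44 ± 0.17) and CAMK2G (-0.17 ± 0.10) were each below 0 on 3 arrays, and with median centring CAMK2G was at 0.29. Of the inositol trisphosphate receptors, ITPR3 was at 0.083 ± 0.090, well above background in the HF channel on 2 arrays, and at -0.084 with median centring.

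**Figure D5:**
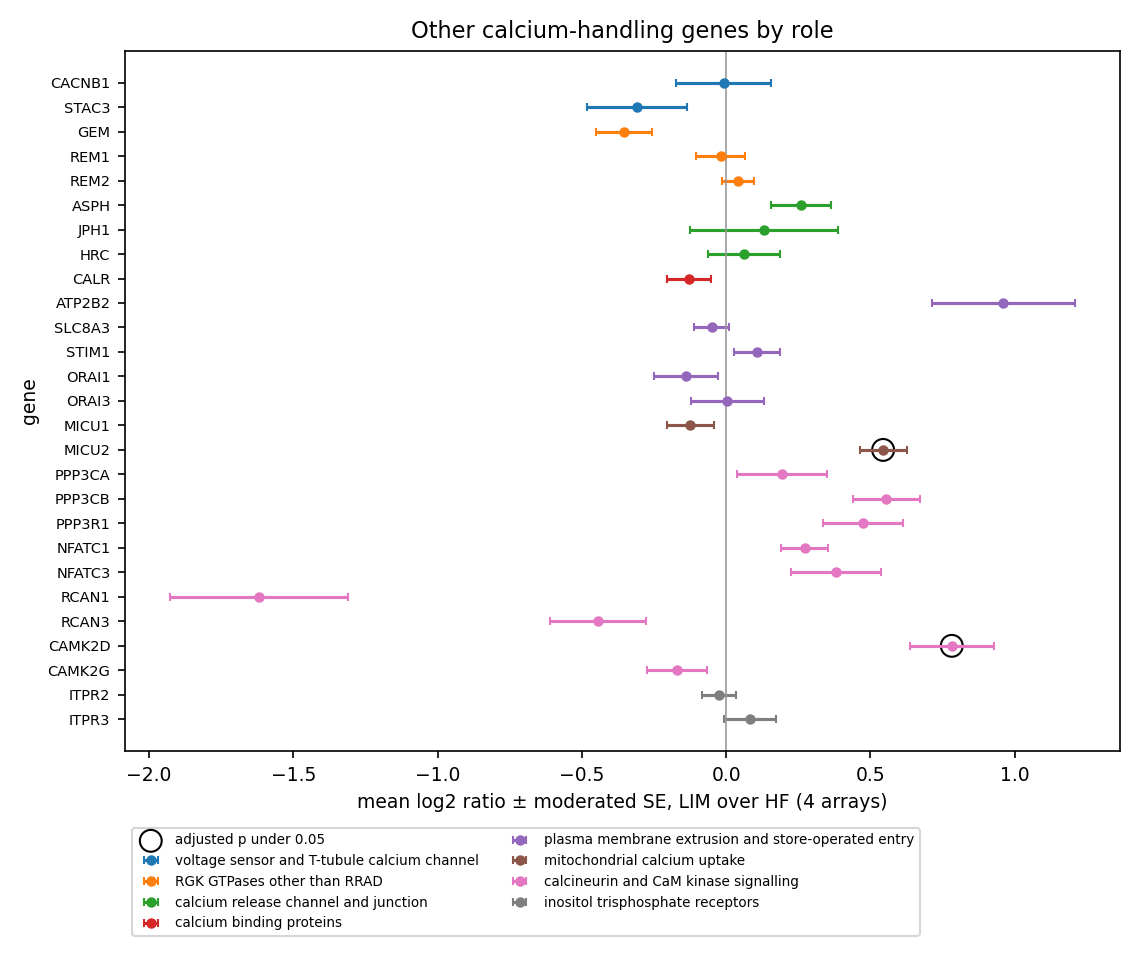
Mean log2 ratio of LIM over HF with its moderated standard error (horizontal axis, 4 arrays) of the 27 measured genes of the wider calcium-handling list (rows, coloured by role), with a ring around genes of adjusted p under 0.05. REM2 and ITPR2 were not well above background in HF. MICU2 and CAMK2D carry a ring, and RCAN1, at -1.62, is the farthest from 0.

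Markers of other cell types were measured in the same channels. The skeletal muscle markers had a median log2 ratio of -0.21 with 0 of 8 called, and their summed log2 level was 19.27 to 19.45 in LIM and 19.39 to 19.76 in HF. With median centring DES (0.34), MYH1 (0.70) and MYH2 (0.21) moved above 0, and MYH7 (-0.33) and TNNT1 (-0.20) stayed below it. Of 5 smooth muscle markers, where ATP2A2 is also expressed, LMOD1 fell (-0.43, adjusted p = 0.0484 by limma), a call lost when any single array was left out (adjusted p from 0.0839 to 0.159) and with median centring (0.022). Over all genes 3.15% fell. The median of the 5 smooth muscle markers was -0.19, and their summed log2 level was 11.55 to 12.02 in LIM and 11.87 to 12.15 in HF. This sign rests on loess. With median centring the other smooth muscle markers were above 0 too: ACTA2 at 0.45, MYH11 at 0.30, TAGLN at 0.28 and CNN1 at 0.34. None of the other 14 markers measured, of endothelium (1 of 4 listed), adipocytes (2 of 4), fibroblasts (4 of 4), blood (4 of 5) and nerve (3 of 4), passed, with medians from -0.60 in nerve to 0.34 in adipocytes. Among these 14 the mean log2 ratios were -1.32 ± 0.42 for PMP22 of Schwann cells and -0.52 ± 0.15 for CD3E of T cells. The fibroblast markers went both ways. The collagen COL1A1 was at 1.14 ± 0.39 and LUM at 0.66 ± 0.14, while DCN was at -0.23 ± 0.22 and PDGFRA at -0.27 ± 0.19. With median centring DCN was at 0.43 and PDGFRA at 0.27. The part of other cell types in the ratios of ATP2A2, PVALB and RRAD was not tested.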

How the data were processed

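RNA of the semitendinosus muscle was measured on 4 Agilent two-colour bovine arrays on 1 slide. The labels number the arrays as 4 biological replicates. The calcium-handling genes and the lists were chosen with earlier results of these data known.

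Per the file headers the authors quantified the spots with Feature Extraction 10.7.3.1. The deposited intensity values used were spot and local background medians for each dye, before any normalization. The deposited log10 ratios are processed red over green signals, and the series table held the same values (largest difference 0). The file headers name an older genome build for the array design than that of the gene table used for names, so no coordinates are printed. Probe sequences were not used here.

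Background was corrected in limma 3.58.1 (R 4.3.3) by normexp with an offset of 50, which shrinks ratios of dim probes. Ratios were normalized by loess within arrays, and 5 to 10 non-uniform spots per array were left out. Duplicate spots were averaged. Probes well above background in 1 channel on at least 3 arrays were kept, 15856 of 21475. Channel levels were obtained after loess and Aquantile. Of 42990 spots, 32513 to 33527 were well above background in LIM and 27102 to 28769 in HF. Ratios correlated between arrays with Pearson's r from 0.40 to 0.60 across probes, which are not independent replicates. The number of arrays limits the precision.

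Accessions were matched to a RefSeq gene table (assembly ARS-UCD2.0), which named 8297 probes (7788 symbols). A gene was represented by its brightest kept probe. Tests were limma's lmFit and eBayes against 0, two-sided, with Benjamini-Hochberg adjustment over all kept probes. They were read for the wider calcium-handling list, the cell type markers and the isoform pairs other than the pumps. The outcomes of the members are given as a description, and nothing is read from them. The fit was tested on simulated data. Named genes were the 7 members, the list genes past the test and the largest ratio of each role, both genes of the isoform pairs, and the 3 nearest patterns to each member with an absolute mean log2 ratio of at least 0.58. REM1, CACNB1, JPH1, HRC, PPP3CB, PPP3R1, NFATC1, PPP3CA, NFATC3, RCAN3, CAMK2G and MYH2 were named after their values were seen. The same holds for the single-sided isoform genes and for the cell type markers that did not pass.

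Alternatives were the background correction and offset, processed signals, 2 centrings, scale normalization, array weights, the mean of a gene's probes, outlier spots, the dim filter, an intensity trend, the methods' t-test, separate channels and leaving out each array.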

Additional observations from a re-analysis of the deposited data

How the results depend on the processing

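The mean ratios of ATP2A1, ATP2A2, PVALB and RRAD and the difference between the pumps kept their sign under all 12 or 13 alternatives run for each. They ranged from 0.62 to 1.56 for ATP2A1, from -1.20 to -0.42 for ATP2A2, from 1.54 to 2.51 for PVALB, from -2.26 to -1.39 for RRAD and from 1.504 to 2.18 for the difference. Only ATP2A1 with median centring in place of loess (1.56) moved by more than the SD between arrays. This centring put the median of all kept probes at 0.25 and 92.8% of called probes on the higher side, against 54.1% with loess, 46.8% with centring on the kept probes and 60.3% with processed ratios; their numbers called were 3800, 867, 5501 and 1339. The channels as separate samples gave 2863 and the methods' t-test 1479, or 1 after adjustment. No probe was called with the intensity trend or without array 1, 2 or 4, and 51 were called without array 3.

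The count of 2 genes of the calcium-handling list past the test was less stable. It was 10 with median centring (10 higher), 12 with centring on the kept probes (8 higher, 4 lower), 7 with the channels as separate samples (4 higher, 3 lower) and 4 by the methods' t-test at their fold limit of 1.3 (3 higher, 1 lower). With an offset of 16 there were 2 higher and 1 lower, and with processed ratios and with array weights 1 higher and 1 lower. It was 1 with plain background subtraction, a lower one while MICU2 (adjusted p = 0.0626) and CAMK2D (adjusted p = 0.0511) were lost in limma's test, 1 (higher) without the filter on dim probes, and 0 with scale normalization, with an intensity trend and robust prior and by the methods' t-test after Benjamini-Hochberg adjustment; 9, 9 and 6 were then under an unadjusted p of 0.05. Leaving out each array gave 0 to 0. In the 17 alternatives judged on an adjusted p, MICU2 passed in 8 and CAMK2D in 6, with adjusted p by limma or the methods' t-test from 0.00185 to 0.146 and from 0.00125 to 0.185, and both stayed above 0. The cause of these changes was not tested. The array ratio pairs 1 LIM with 1 HF bull, and the channels as separate samples are the fit without this pairing. Of the probes in the list, those not well above background in the HF channel (REM2, ITPR2) limit what can be said of their genes.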
